A study of Mus musculus with 40 samples.

Results

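*Ch25h*, *Cyp7b1*, *Hsd3b7* and *Gpr183* encode the enzymes and the receptor of the 25-hydroxycholesterol axis, and each had 1 row of its own among the 43346 genes of the deposited count table, where the rows were found by gene name. All 4 passed the filter on low counts (10 or more counts in no fewer than 4 of 40 libraries), which kept 21253 genes. The RNA came from the cortex of 40 mice, 10 in each of 4 groups, of which 5 were female and 5 male. The non-amyloid groups were 6 months old and were wild type (WT) or homozygous for the *Trem2* H157Y knock-in (Hom), a missense change made by CRISPR/Cas9 in the microglial receptor gene *Trem2*, with all Hom mice descending from a single founder line. The amyloid groups were 8.5 months old, WT or Hom, and all carried in addition the 5xFAD transgenes, which carry familial Alzheimer mutations and are driven by the neuronal *Thy1* promoter. Age and transgenes differed together between the cohorts and cannot be told apart. RNA came from an aliquot of pulverized cortex, so that every value is a mean over all cell types in it, and fewer cells of a type and less RNA per cell cannot be told apart.

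As background, CH25H hydroxylates cholesterol at carbon 25, and in phagocytes its gene is induced by Toll-like receptor ligands and interferons. CYP7B1 adds a hydroxyl at carbon 7 of 25-hydroxycholesterol, which gives the chemoattractant 7α,25-dihydroxycholesterol, and HSD3B7 removes that ligand by oxidizing it further. GPR183 (EBI2) is the G protein-coupled receptor for 7α,25-dihydroxycholesterol and guides B cells, T cells and dendritic cells, and it is also expressed by microglia. 25-Hydroxycholesterol itself suppresses SREBP2, the transcription factor of the cholesterol synthesis genes, and activates the liver X receptors (LXR), which drive cholesterol efflux genes.

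Total counts ranged from 41646271 to 105903846 per library. Reads on rows annotated as antisense made up 0.660% of the counts of replicate 19, an amyloid Hom female, and 0.0857 to 0.107% in the other 39 libraries. This library also had the lowest total. The study left out an amyloid Hom female for a low percentage of gene counts and for its strand check, without naming the mouse. Whether replicate 19 is that mouse is not known. All 40 libraries were kept, and results that involve replicate 19 are given without it where it mattered. Microglial marker genes were measured in every group, and the sum of 12 of them had a median of 462 CPM (counts scaled by the TMM-adjusted library size) in the non-amyloid WT, 437 CPM in the non-amyloid Hom, 1087 CPM in the amyloid WT and 740 CPM in the amyloid Hom. *Trem2* itself averaged 62.2 ± 24.4 CPM (SD, n = 10) in the amyloid WT and 33.9 ± 10.3 CPM in the amyloid Hom. A count of *Trem2* reads does not check the point mutation, so the genotypes rest on the labels.

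In the amyloid cohort, the 2 genes at the ends of the axis were higher than without amyloid, and no such difference was called for the enzymes between them. *Ch25h* rose 8.52-fold and *Gpr183* rose 3.11-fold in amyloid WT compared to non-amyloid WT mice. *Cyp7b1* and the *Hsd3b7* row differed by at most 0.14 on the log2 scale between the cohorts in either genotype. That row is not free of exons of the neighbouring gene *Setd1a*, so the level of *Hsd3b7* itself is uncertain. Among amyloid mice, the mean of *Ch25h* in Hom was 0.448 times that in WT, and the mean of *Gpr183* was 0.670 times that in WT. Neither of these genotype differences passed the main test (edgeR within the cohort, no covariate) at an adjusted p of 0.05. Both passed with sex as a covariate, and without sex both passed with DESeq2 and in an edgeR fit of all 40 libraries. The main test called 16 genes in all, and the alternatives called from 6 to 612. The study, which left out an amyloid Hom female, listed *Gpr183* among the genes lower in amyloid Hom than in amyloid WT mice.

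*Ch25h* (ENSMUSG00000050370, mm10 chromosome 19, 34473786 to 34475135) is a gene of a single exon. On the strand opposite, the annotated lncRNA *Gm26902* shares 159 exonic bases with it (GENCODE vM21). *Gpr183* (ENSMUSG00000051212, chromosome 14, 121952331 to 121965193) lies inside the bounds of *Ubac2*, which is on the other strand, and shares 0 exonic bases with it. *Cyp7b1* (ENSMUSG00000039519, chromosome 3, 18071950 to 18243338) has 6 exons. *Hsd3b7* (ENSMUSG00000042289) was counted over chromosome 7, 127785608 to 127803802, which is wider than the gene.

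Because *Ch25h* and *Gpr183* were the members that rose with amyloid, the bases just before their start sites are shown, from 250 to 21 bases upstream of the RefSeq start (GRCm38.p6, which is mm10), 5′ to 3′ on the strand of the gene. The *Ch25h* window is chr19:34475169-34475398 on the minus strand and the *Gpr183* window is chr14:121965214-121965443 on the minus strand, and capitals mark a match to the cAMP response element.
Ch25h: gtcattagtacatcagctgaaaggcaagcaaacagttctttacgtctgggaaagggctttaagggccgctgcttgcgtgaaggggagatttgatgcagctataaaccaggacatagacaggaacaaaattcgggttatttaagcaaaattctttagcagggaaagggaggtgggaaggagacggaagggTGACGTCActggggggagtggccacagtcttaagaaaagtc
Gpr183: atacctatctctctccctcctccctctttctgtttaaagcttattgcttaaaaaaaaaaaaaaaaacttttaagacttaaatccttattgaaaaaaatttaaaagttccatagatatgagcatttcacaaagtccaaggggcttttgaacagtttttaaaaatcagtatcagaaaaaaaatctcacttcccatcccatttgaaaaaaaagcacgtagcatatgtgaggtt
The palindromic cAMP response element (TGACGTCA) began 61 bases before the *Ch25h* start, and 1.28% of the 32851 promoter windows of the same length held it. Both strands were also searched for AP-1 (TGANTCA), PU.1 (GAGGAAG), the interferon-stimulated response element, the gamma-activated site (TTCNNNGAA) and the LXR element of direct repeats spaced by 4 bases, and these letters were not in either window. They are held by 6.34%, 9.54%, 2.72%, 6.48% and 0.0152% of all windows. A match is a description of the letters and not evidence of binding. Of the 4 genes, 3 had an entry in the promoter table.

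*Ch25h* counts were low without amyloid. In non-amyloid WT mice its level ran from 0.0665 to 0.434 CPM with a median of 0.210 CPM, on 5 to 40 counts per library. In non-amyloid Hom mice it ran from 0.0947 to 0.398 CPM with a median of 0.142 CPM. The highest of these Hom libraries, replicate 37, stood at 0.398 CPM, with the next at 0.175 CPM. Amyloid WT mice ran from 0.995 to 3.81 CPM with a median of 1.64 CPM, and amyloid Hom mice from 0.492 to 1.30 CPM with a median of 0.740 CPM. Every amyloid library was thus above every non-amyloid library, the lowest amyloid Hom included. The means were 0.222 ± 0.120, 0.160 ± 0.0887, 1.93 ± 0.836 and 0.864 ± 0.336 CPM (SD, n = 10 each) in the order given. Counting error alone gives a coefficient of variation of 25.8% at the median count of the non-amyloid WT group, where the libraries varied by 54.2%, and of 8.497% in the amyloid WT group, where they varied by 43.3%.

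*Gpr183* had a narrower range. It ran from 1.14 to 2.25 CPM (median 1.43) in non-amyloid WT and from 1.08 to 1.87 CPM (median 1.32) in non-amyloid Hom mice. It ran from 3.55 to 7.04 CPM (median 4.74) in amyloid WT and from 2.20 to 5.50 CPM (median 2.89) in amyloid Hom mice. As for *Ch25h*, the amyloid libraries were all above the non-amyloid libraries of their genotype. The lowest amyloid Hom library, at 2.20 CPM, lay below the highest non-amyloid WT library, at 2.25 CPM. The means were 1.54 ± 0.336, 1.39 ± 0.237, 4.78 ± 1.002 and 3.21 ± 1.08 CPM (SD, n = 10 each).

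*Cyp7b1*, the enzyme that makes the ligand from 25-hydroxycholesterol, ranged from 10.1 to 18.5 CPM over all 40 libraries. Its group medians were 12.5 CPM in non-amyloid WT, 11.4 CPM in non-amyloid Hom, 13.4 CPM in amyloid WT and 13.3 CPM in amyloid Hom. The ranges of all 4 groups overlapped. The *Hsd3b7* row ranged from 24.7 to 45.6 CPM, with group medians of 33.2, 34.98, 34.9 and 33.1 CPM in the same order, again with overlapping ranges. Per kilobase of counted exon, the amyloid WT means were 6.27 CPM for *Cyp7b1*, 5.72 CPM for the *Hsd3b7* row, 1.63 CPM for *Gpr183* and 1.43 CPM for *Ch25h*. In non-amyloid WT they were 5.87, 5.32, 0.522 and 0.164 CPM per kilobase. *Ch25h* was thus the gene with the lowest level per length in both cohorts.

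**Figure D1:**
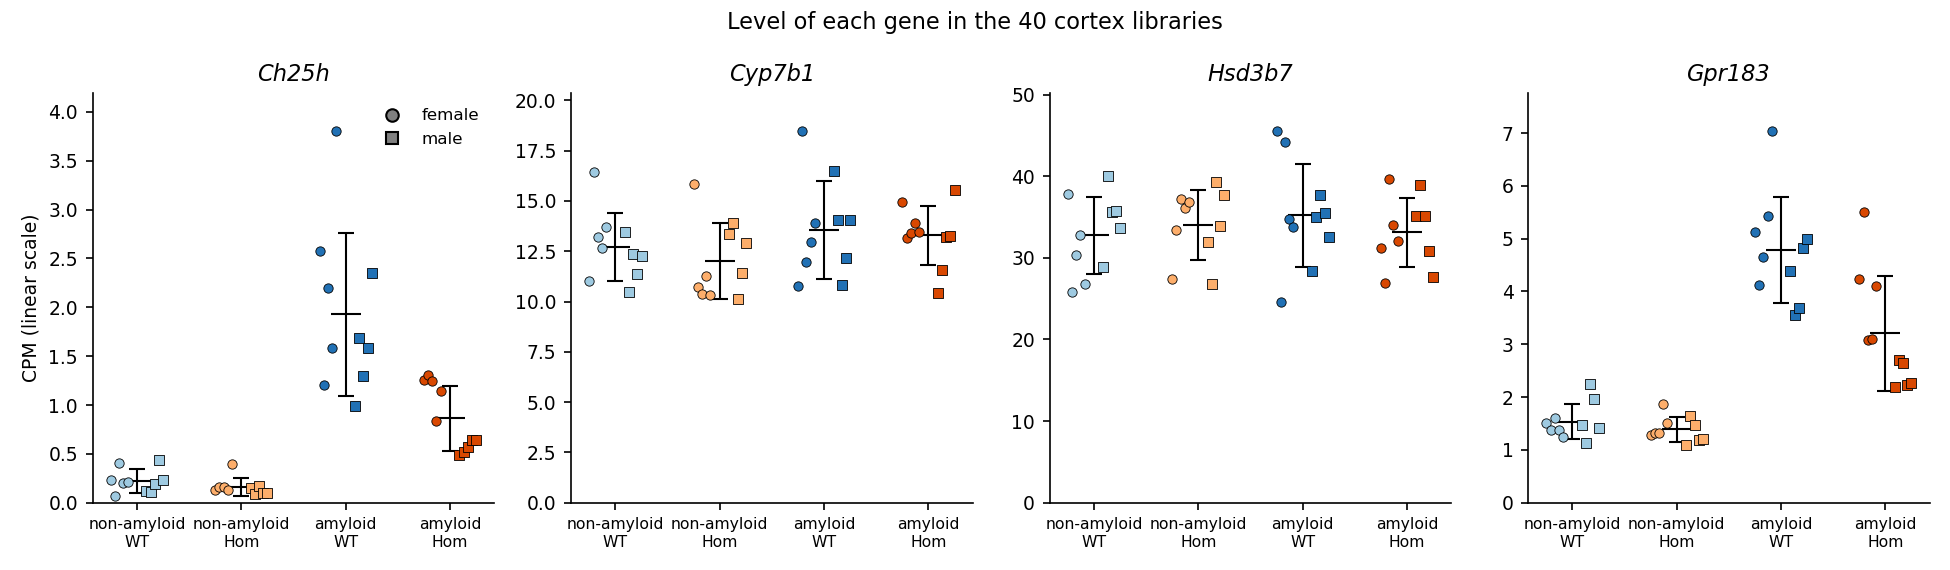
Level of each gene in CPM (vertical axes, linear, each from 0) in the 40 libraries, by group (horizontal axes), with circles for females, squares for males and bars for the mean and 1 SD of 10 mice. *Ch25h* and *Gpr183* are higher in the amyloid groups, where the 5 Hom males lie below the 5 WT males, and *Cyp7b1* and *Hsd3b7* overlap in all groups.

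The effect of the amyloid cohort was tested within each genotype in a fit of all 40 libraries. In WT mice *Ch25h* rose by 3.09 ± 0.29 on the log2 scale (SE), with an adjusted p of 4.96e-11 by the quasi-likelihood test of edgeR, Benjamini-Hochberg adjusted. *Gpr183* rose by 1.64 ± 0.15 (adjusted p = 2.43e-11, same test). In Hom mice the rises were 2.40 ± 0.29 for *Ch25h* (adjusted p = 1.38e-07) and 1.20 ± 0.15 for *Gpr183* (adjusted p = 1.89e-07, same test). So 2 of the 4 genes were called in each genotype, beside 7.95% of all genes tested in WT and 6.56% in Hom mice. Among all genes, *Ch25h* had the 56th highest log2 fold change in WT mice. Complete separation upwards, as both genes had, was seen for 1.95% of all genes in WT and for 0.875% in Hom mice.

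*Cyp7b1* differed between the cohorts by a log2 fold change of 0.10 ± 0.09 in WT (interval of 2 SE from -0.09 to 0.28) and of 0.14 ± 0.09 in Hom mice (from -0.04 to 0.33). The *Hsd3b7* row differed by 0.11 ± 0.09 in WT (from -0.08 to 0.29) and by -0.04 ± 0.09 in Hom mice (from -0.22 to 0.15). These intervals lie far below the changes of *Ch25h* and *Gpr183*. The 2 genotypes share no libraries in these contrasts, but they were estimated in the same fit.

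The genotype comparison asked how the H157Y change moved these genes in each cohort. In amyloid mice, *Ch25h* had a log2 fold change of -1.16 ± 0.25 in Hom compared to WT (unadjusted p = 0.000105, adjusted p = 0.0554 by the quasi-likelihood test of edgeR, Benjamini-Hochberg adjusted), the 37th lowest p of all genes. *Gpr183* had a log2 fold change of -0.58 ± 0.16 (unadjusted p = 0.00196, adjusted p = 0.120, same test). *Cyp7b1* stood at -0.03 ± 0.09 (interval of 2 SE from -0.22 to 0.15) and the *Hsd3b7* row at -0.09 ± 0.10 (from -0.28 to 0.10). None of the 4 genes was called, beside 0.0753% of all genes tested (16 genes), so the test called very few genes in this comparison. Unadjusted p values under 0.05 in the lower direction were found for 5.77% of all genes.

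The calls of *Ch25h* and *Gpr183* depended on the model, and without sex both genes were also called by DESeq2 and in the fit of all 40 libraries. With sex as a covariate its log2 fold change was -1.22 (adjusted p = 0.00371), and that of *Gpr183* was -0.61 (adjusted p = 0.0137), both by the quasi-likelihood test of edgeR, Benjamini-Hochberg adjusted. With sex as a covariate and without replicate 19, chosen after seeing the data, the values were -1.25 (adjusted p = 0.00573) and -0.59 (adjusted p = 0.0258). Leaving out any of 4 single libraries also brought *Ch25h* past the threshold without a covariate. Its adjusted p (edgeR's quasi-likelihood test) was 0.0411 without the amyloid Hom replicate 3, 0.0374 without the amyloid WT replicate 9, 0.0301 without the amyloid WT replicate 13 and 0.0371 without the amyloid WT replicate 22. Over all 20 such omissions the log2 fold change of *Ch25h* stayed between -1.25 and -0.996, with adjusted p from 0.0301 to 0.1203 (edgeR). That of *Gpr183* stayed between -0.70 and -0.50, with adjusted p from 0.0573 to 0.248 (edgeR), so that it was called in 0 of the 20.

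In non-amyloid mice, 0 of the 4 genes were called between the genotypes, beside 0.0329% of all genes. *Ch25h* stood at -0.47 ± 0.32 (interval of 2 SE from -1.12 to 0.17), an interval that still holds large changes at 5 to 40 counts per library. *Gpr183* stood at -0.14 ± 0.13 (from -0.39 to 0.12), *Cyp7b1* at -0.07 ± 0.08 and the *Hsd3b7* row at 0.06 ± 0.09. The difference of the genotype effect between the cohorts was tested directly. It was -0.69 ± 0.41 for *Ch25h* (adjusted p = 0.536) and -0.44 ± 0.21 for *Gpr183* (adjusted p = 0.473, edgeR, quasi-likelihood test, Benjamini-Hochberg), with 0% of all genes called. This test gave 2189 genes an unadjusted p under 0.05, among them *Gpr183* (unadjusted p = 0.0415, edgeR) but not *Ch25h* (unadjusted p = 0.0948). DESeq2 called 27 genes, and none of the 4 was among those 27. The genotype difference was therefore not shown to depend on amyloid for either gene.

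In order of level, *Ch25h* was highest in amyloid WT, followed by amyloid Hom, non-amyloid WT and non-amyloid Hom. The amyloid groups overlapped, with 6 of 10 Hom libraries below all WT libraries and 7 of 10 WT libraries above all Hom libraries. Amyloid Hom and non-amyloid WT did not overlap, and the range of non-amyloid Hom lay within that of non-amyloid WT. *Gpr183* followed the same order, with 7 of 10 amyloid Hom libraries below all amyloid WT libraries.

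**Figure D2:**
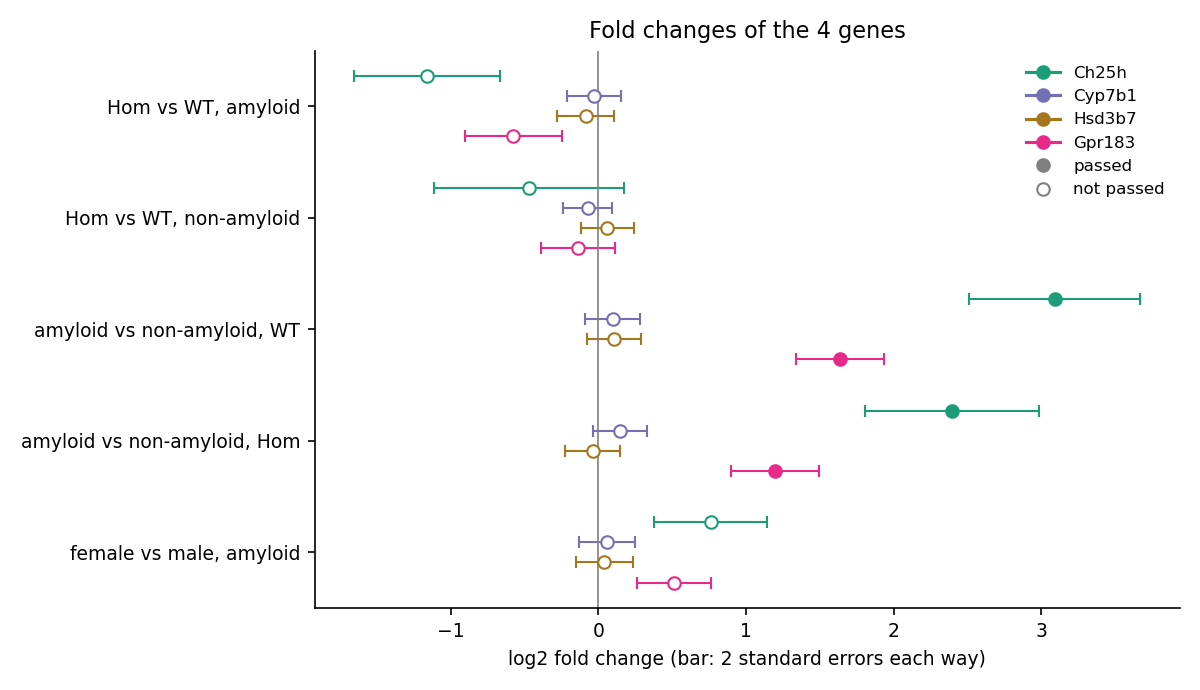
Log2 fold change (horizontal axis) of each gene in 5 comparisons (vertical axis) from edgeR, with bars of 2 standard errors each way, filled points for genes called at an adjusted p under 0.05 and a log2 fold change over 0.25 in size, and open points for the others. *Ch25h* and *Gpr183* are called between the cohorts in both genotypes, and every interval of *Cyp7b1* and *Hsd3b7* includes 0.

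In males all amyloid Hom libraries lay below all amyloid WT libraries for both *Ch25h* and *Gpr183*. The 5 amyloid Hom males had 0.492, 0.520, 0.567, 0.638 and 0.639 CPM of *Ch25h*, and the 5 amyloid WT males had 0.995, 1.30, 1.58, 1.69 and 2.35 CPM. The groups did not overlap, and the Hom mean was 0.361 times the WT mean. For *Gpr183* the Hom males had 2.20, 2.23, 2.28, 2.64 and 2.70 CPM and the WT males 3.55, 3.69, 4.38, 4.82 and 4.99 CPM. Here too the groups did not overlap, and the Hom mean was 0.562 times the WT mean. Such separation downwards in males was seen for 0.598% of all genes. The mean differences in log2(CPM + 0.1) were -1.28 for *Ch25h* and -0.80 for *Gpr183*, each with p = 0.00794 in a two-sided exact permutation test, the smallest p that 5 against 5 mice allow.

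In females the groups overlapped. The amyloid Hom females had 0.841, 1.14, 1.24, 1.25 and 1.30 CPM of *Ch25h*, and the WT females had 1.20, 1.58, 2.20, 2.57 and 3.81 CPM. The difference was -0.83 in log2(CPM + 0.1) (exact permutation p = 0.0317), and p rose to 0.0635 when any of 6 single libraries was left out, so that it does not hold without them. These were the WT replicates 5, 12, 26 and 32 and the Hom replicates 33 and 34, without which the difference was between -0.93 and -0.62. *Gpr183* in Hom females was 3.07, 3.09, 4.11, 4.24 and 5.50 CPM, and in WT females 4.13, 4.65, 5.13, 5.44 and 7.04 CPM, a difference of -0.40 (exact permutation p = 0.0952). Without the Hom replicate 16, which had the highest level, it was -0.52 (exact permutation p = 0.0317). In all, 16 such differences were computed (4 genes, 2 sexes and 2 cohorts), and these p values are not adjusted for that number. The other 12 had an exact permutation p of 0.135 or more, and in the non-amyloid cohort the *Ch25h* difference was -0.11 in females and -0.44 in males.

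A larger genotype difference in males was not shown by the test of the difference itself. The interaction of genotype and sex in amyloid mice was 0.49 ± 0.37 for *Ch25h* (adjusted p = 0.819) and 0.43 ± 0.24 for *Gpr183* (adjusted p = 0.817, edgeR, quasi-likelihood test, Benjamini-Hochberg). The test called 0% of all genes, found 1124 at an unadjusted p under 0.05, and DESeq2 also called 0. Compared with males, amyloid females had log2 fold changes of 0.76 ± 0.19 for *Ch25h* (adjusted p = 0.0933) and 0.51 ± 0.13 for *Gpr183* (adjusted p = 0.0880, same test, genotype as covariate). Neither was called, beside 0.240% of all genes. The 5 Hom females were all above the 5 Hom males for both genes, as for 0.508% of all genes, whereas WT females and males overlapped. *Cyp7b1* (0.06 ± 0.09) and the *Hsd3b7* row (0.04 ± 0.10) stood near 0 between the sexes.

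Markers of microglia moved in the same direction as *Ch25h* and *Gpr183*. Of 12 microglial genes, 12 were called higher in amyloid than in non-amyloid WT mice, beside 6.62% of all genes called higher, and their median log2 fold change was 1.14. In amyloid Hom compared to WT mice 0 of the 12 were called, 12 were lower, 11 had an unadjusted p under 0.05 (beside 5.77% of all genes in this direction), and the median was -0.54, beside 0.00 over all genes. The lowest p were those of *Laptm5* (-0.79, adjusted p = 0.0525) and *Olfml3* (-0.71, adjusted p = 0.0554, edgeR, quasi-likelihood test, Benjamini-Hochberg). Of 14 plaque-associated microglial genes, 14 were called higher with amyloid (median 2.22), beside the same 6.62% of all genes, and all 14 had an unadjusted p under 0.05 in the lower direction in Hom mice (median -0.86), of which only *Gpnmb*, a glycoprotein of lipid-laden phagocytes, was called (log2 fold change -1.61 ± 0.29, adjusted p = 0.0330 by the quasi-likelihood test of edgeR, Benjamini-Hochberg adjusted). The part of these markers in the differences of *Ch25h* and *Gpr183* was not tested. As a description within each library, each gene was also expressed relative to the mean log2(CPM + 0.1) of the 12 microglial genes, and the values depended on the genes used as the base.

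Relative to the 12 microglial genes, *Ch25h* ran from -5.66 to -4.51 (median -5.00) in amyloid WT and from -6.14 to -4.87 (median -5.44) in amyloid Hom mice on this log2 scale. The Hom mean was lower by 0.53 (permutation p = 0.0078, 100000 resamples, two-sided), with 4 of 10 Hom libraries below all WT libraries, and without replicate 19 it was lower by 0.60 (permutation p = 0.00288). With 0.5 in place of 0.1 CPM added the difference was -0.28 (permutation p = 0.0441), with 1 of 10 Hom libraries below all WT libraries. In log2(CPM + 0.1) it was -0.80 in males and -0.26 in females. It was smaller, at -0.25 (permutation p = 0.162), when the 14 plaque-associated genes served as the base. *Gpr183* ran from -3.95 to -3.41 (median -3.66) in WT and from -4.16 to -3.18 (median -3.74) in Hom mice. Its means differed by -0.08 (permutation p = 0.453), with -0.32 in males and 0.16 in females, and by 0.20 in the opposite direction with the plaque-associated genes as the base (permutation p = 0.125). *Cyp7b1* and the *Hsd3b7* row differed little in CPM, so their relative differences mostly restate the lower microglial genes of Hom mice. Relative to those genes they were higher by 0.50 (permutation p = 0.0047) and by 0.45 (permutation p = 0.0164). These p values are for 4 tests and are not adjusted.

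Compared with non-amyloid WT mice, the level relative to microglial genes in amyloid WT mice was higher by 1.44 for *Ch25h* and by 0.37 for *Gpr183* on the log2 scale, and lower by 1.12 for *Cyp7b1* and by 1.11 for the *Hsd3b7* row. With 0.5 in place of 0.1 CPM added, the differences were 0.51 for *Ch25h* and 0.18 for *Gpr183*, so that their size depends on the value added. Relative to plaque-associated genes it was lower for all 4, by 0.18 for *Ch25h* and by 1.25 for *Gpr183*. No test was made of these values.

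**Figure D3:**
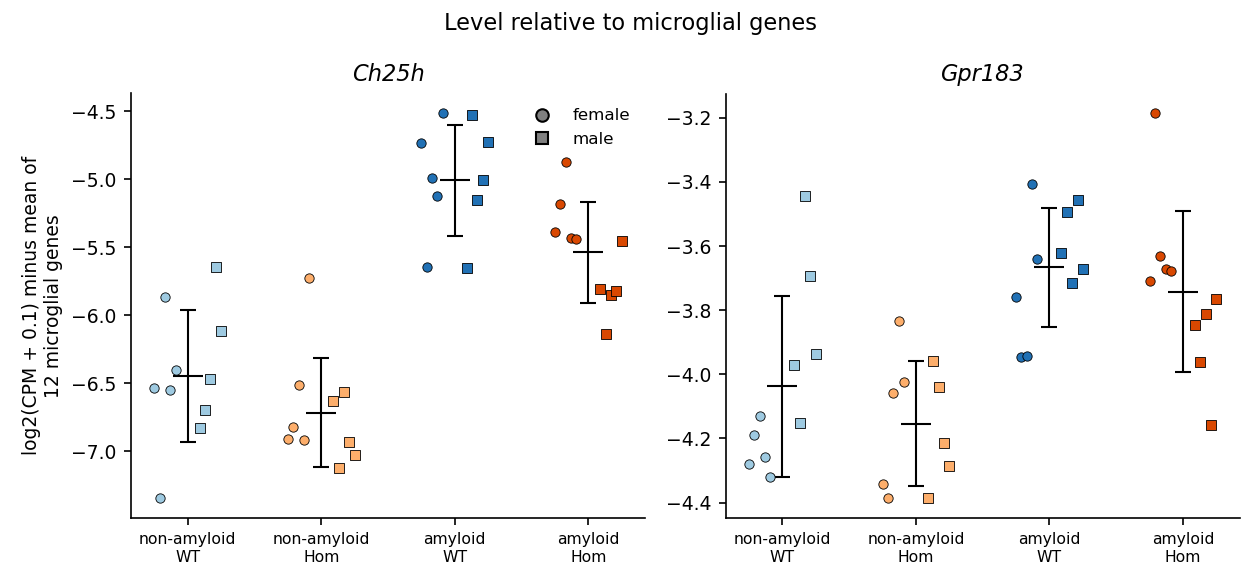
Level of *Ch25h* and *Gpr183* relative to the mean of 12 microglial genes (vertical axes, difference of log2(CPM + 0.1) values) in each library by group (horizontal axes), with circles for females, squares for males and bars for the mean and 1 SD of 10 mice. Among amyloid mice *Ch25h* has a median of -5.00 in WT and -5.44 in Hom, and *Gpr183* one of -3.66 in WT and -3.74 in Hom.

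Markers of lymphoid and dendritic cells, the classic carriers of *Gpr183*, were also measured. The B cell marker *Ms4a1* averaged at most 0.0864 CPM in any group and did not pass the filter, and the summed level of 5 B cell genes ran from 1.02 to 1.61 CPM in amyloid WT and from 0.935 to 1.75 CPM in amyloid Hom mice. The T cell genes *Cd3e*, *Cd3g* and *Cd8a* were called higher in amyloid than in non-amyloid WT mice, beside 6.62% of all genes. They averaged 0.103, 0.126 and 0.213 CPM in amyloid WT mice, and 0.0660, 0.0860 and 0.159 CPM in amyloid Hom mice. *Cd4* was called lower with amyloid in WT mice, beside 1.33% of all genes, and averaged 11.5 CPM in amyloid WT and 13.5 CPM in amyloid Hom mice. The summed level of 6 dendritic cell genes ran from 18.3 to 28.3 CPM (median 24.7) in amyloid WT and from 23.3 to 27.7 CPM (median 24.6) in amyloid Hom mice, most of it from *Zbtb46* and *Flt3*. Their markers *Xcr1*, *Clec9a* and *Ccr7* averaged at most 0.0856 CPM in any group and did not pass the filter. The 5 T cell genes summed to a median of 11.3 CPM in amyloid WT and 11.9 CPM in amyloid Hom mice, most of it from *Cd4*. This sum therefore says little about *Cd3e*, *Cd3g* and *Cd8a*, whose means were each lower in amyloid Hom mice. None of the markers of B cells, T cells or dendritic cells that were tested was called between the genotypes. Of all genes, 0.0753% were called in this way in amyloid and 0.0329% in non-amyloid mice. The part of these markers in the level of *Gpr183* was not tested. No defining marker of these lists was at 0 in all libraries of a group. Of 7 border macrophage genes, 0 were called between the cohorts, beside 7.95% of all genes in WT and 6.56% in Hom mice. Between the genotypes 0 were called too, beside the same shares as for the markers above. Their median log2 fold change was 0.28 with amyloid in WT and -0.27 in amyloid Hom compared to WT mice. In the latter comparison all 7 were lower and 2 had an unadjusted p under 0.05 (edgeR), beside 5.77% of all genes in this direction.

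Within the groups, *Ch25h* and *Gpr183* varied together to a moderate degree. After the mean of each cohort, genotype and sex was subtracted, the correlation of their log2(CPM + 0.1) values over the 20 amyloid libraries was r = 0.53 (Spearman's rho = 0.42), and r = 0.26 without the 2 libraries farthest from the median of *Ch25h*. Among the amyloid libraries r thus depended in part on those 2, whereas over all 40 libraries r was 0.42, and 0.41 without the 2 farthest. The mean of the 12 microglial genes had r = 0.71 (rho = 0.74) with *Gpr183* and r = 0.48 (rho = 0.38) with *Ch25h* over the same libraries. Without the 2 farthest libraries these were 0.71 and 0.35. With the log2 of total counts, r was 0.26 for *Gpr183* and 0.04 for *Ch25h*. These are descriptions of mice that share groups and library preparation.

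**Figure D4:**
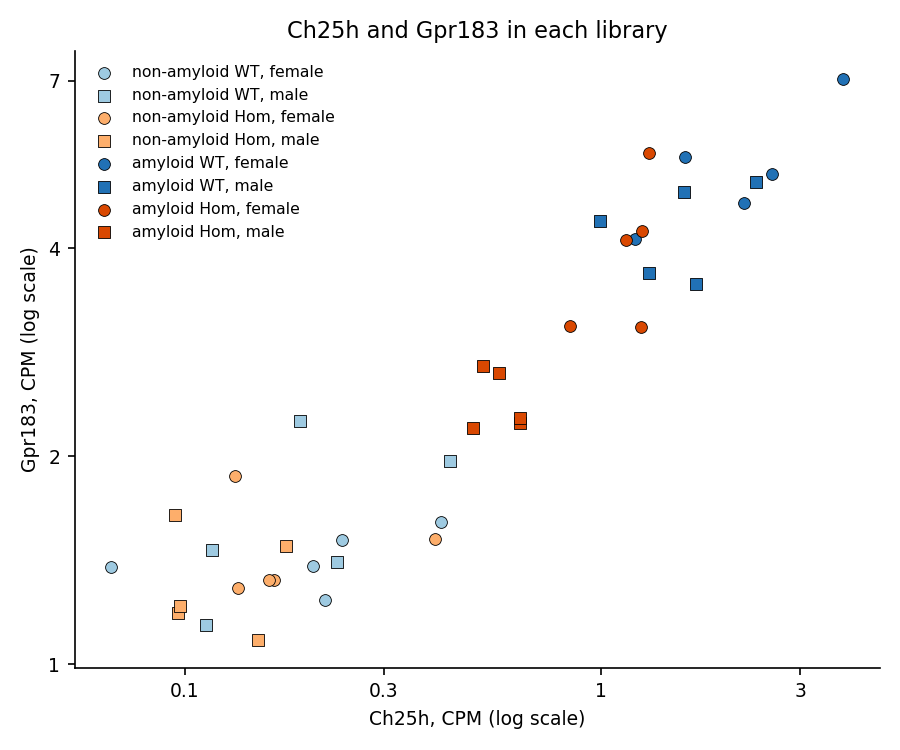
*Gpr183* (vertical axis, CPM, log scale) against *Ch25h* (horizontal axis, CPM, log scale) in the 40 libraries, colored by group, with circles for females and squares for males. Every amyloid library lies to the right of every non-amyloid library, and along the horizontal axis the 5 amyloid Hom males, from 0.492 to 0.639 CPM of *Ch25h*, lie between the non-amyloid and the amyloid WT libraries.

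The genes whose group-centred pattern over the 20 amyloid libraries was most like that of *Gpr183*, among 15416 genes with a mean of at least 1 CPM over these libraries, were *Plau* (r = 0.90), which encodes urokinase, the chemokine genes *Ccl3* (0.86) and *Ccl4* (0.86), *Tifab* (0.83) and *Cybb* (0.82), a subunit of the phagocyte NADPH oxidase. For *Ch25h* they were *Pkdrej* (0.85), *Hcar2* (0.80), the receptor for butyrate and niacin, *Icam1* (0.77), an adhesion molecule, *Arhgap30* (0.76) and *Tgfbr2* (0.76), a TGF-beta receptor. Several of these values were lower over all 40 libraries, where r was 0.05 for *Pkdrej* and 0.38 for *Hcar2* with *Ch25h*, and 0.28 for *Ccl3* and 0.31 for *Cybb* with *Gpr183*. For *Cyp7b1* they were *2610044O15Rik8* (0.90), *Zfp930* (0.90), *Thyn1* (0.89), *Cog5* (0.88) and *Gm12183* (0.88), none of which is a known lipid gene. For the *Hsd3b7* row they were *Setd1a* (0.98), *Dvl1* (0.98), *Hip1r* (0.97), *Sart3* (0.97) and *Tnk2* (0.97).

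*Cyp7b1* and the *Hsd3b7* row varied in opposite directions among mice of the same group (r = -0.81, rho = -0.75 over the 20 amyloid libraries, and r = -0.83 over all 40). The neighbouring gene *Setd1a* had much the same values with *Cyp7b1* (r = -0.83 over the 20 and -0.82 over all 40). The opposition is thus not particular to these 2 enzyme genes. *Cyp7b1* and the *Hsd3b7* row both followed the axis of largest variation of the whole data within groups, which held 17.4% of the group-centred variance, with r = 0.79 for the *Hsd3b7* row and r = -0.59 for *Cyp7b1* over 40 libraries.

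The *Hsd3b7* values are uncertain, since the row did not cover that gene alone. In GENCODE vM21 *Hsd3b7* spans 127800604 to 127803802 with 2769 exonic bases, whereas the row of the table spans the start and end of *Gm49388*, a readthrough model, with a counted length of 6154 bases. *Gm49388* shares 3523 exonic bases with the upstream gene *Setd1a*, a histone methyltransferase of ubiquitous expression. The ratio of counts of the *Hsd3b7* row to *Setd1a* lay between 0.691 and 0.863 in all libraries (median 0.752), with replicate 19 highest and the others at 0.826 or less. *Setd1a* had log2 fold changes of -0.08 ± 0.09 in amyloid Hom compared to WT and of 0.03 ± 0.09 in amyloid compared to non-amyloid WT mice, close to those of the *Hsd3b7* row. How many of the counts came from *Hsd3b7* transcripts was not tested. The table gives no level for *Hsd3b7* that is free of *Setd1a* exons.

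**Figure D5:**
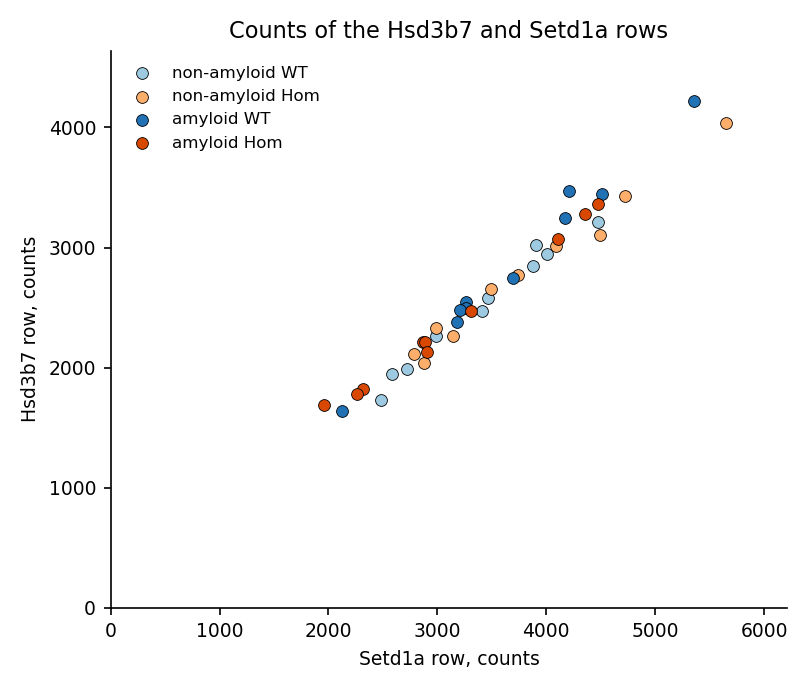
Counts of the *Hsd3b7* row (vertical axis) against counts of the *Setd1a* row (horizontal axis) in the 40 libraries, colored by group, both axes linear from 0. The points follow a narrow band, with a ratio between 0.691 and 0.863.

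For *Ch25h*, the antisense lncRNA *Gm26902* averaged 1.56 ± 0.214 CPM in amyloid WT and 1.33 ± 0.212 CPM in non-amyloid WT mice (SD, n = 10), which is above the level of *Ch25h* in the latter. Its log2 fold change was 0.24 ± 0.12 with amyloid in WT and -0.21 ± 0.14 in amyloid Hom compared to WT mice, neither called. *Ubac2*, around *Gpr183*, differed by -0.04 ± 0.06 and -0.02 ± 0.06 in these comparisons. The part of reads from these overlapping genes in the values of *Ch25h* and *Gpr183* was not tested.

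The remaining genes of oxysterol biology were followed in fixed lists. Of 11 other oxysterol enzymes, 8 were tested. The bile acid genes *Cyp7a1*, *Cyp8b1* and *Akr1d1* did not pass the filter, with means of at most 0.0385 CPM. None of the 8 was called in amyloid Hom compared to WT mice (median -0.08), beside 0.0753% of all genes. *Cyp46a1*, the neuronal 24-hydroxylase, was the most abundant at 123 ± 24.5 CPM in amyloid WT and 113 ± 12.7 CPM in amyloid Hom mice. *Cyp27a1*, the mitochondrial 27-hydroxylase, stood at 6.02 ± 0.939 and 5.34 ± 1.03 CPM. With amyloid in WT mice, 2 of the 8 were called higher, beside 6.62% of all genes, and 1 was called lower, beside 1.33%. *Soat1*, which esterifies sterols for storage, rose by 0.40 ± 0.08 on the log2 scale, *Soat2* rose by 1.64 ± 0.34 from a very low level, and *Cyp39a1*, a 7-hydroxylase for 24-hydroxycholesterol, fell by 0.59 ± 0.16. In amyloid Hom compared to WT mice the lowest p values of the list were those of *Soat2* (log2 fold change -1.07 ± 0.33, adjusted p = 0.168) and *Cyp39a1* (0.27 ± 0.17, adjusted p = 0.617, edgeR, quasi-likelihood test, Benjamini-Hochberg).

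Of 22 oxysterol sensors and carriers, 0 were called between the genotypes in amyloid mice, beside 0.0753% of all genes, and the median log2 fold change was 0.00. The lowest p was that of *Npc2*, the soluble cholesterol carrier of the lysosome (-0.42 ± 0.11, adjusted p = 0.0798), followed by *Osbpl1a* (0.20 ± 0.10, adjusted p = 0.538, edgeR, quasi-likelihood test, Benjamini-Hochberg). With amyloid in WT mice 2 of the 22 were called higher, beside 6.62% of all genes, and 1 was called lower, beside 1.33%. *Npc2* rose by 0.92 on the log2 scale, *Nr1h3* (LXR alpha) rose by 0.43 and *Osbpl1a* fell by 0.31.

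Of 11 LXR target genes, 4 were called higher with amyloid in WT, beside 6.62% of all genes (*Abca1*, *Lpcat3*, *Mylip* and *Lpl*, the last also a plaque-associated gene, by 0.37 to 0.55 on the log2 scale). Between the genotypes in amyloid mice 0 were called (median -0.14), beside 0.0753% of all genes. The lowest p values were those of *Lpcat3* (-0.14 ± 0.05, adjusted p = 0.308) and *Mylip* (-0.15 ± 0.06, adjusted p = 0.360, edgeR, quasi-likelihood test, Benjamini-Hochberg). Of 15 SREBP2 target genes, 8 were called higher with amyloid in WT mice, beside 6.62% of all genes, and 0 lower, beside 1.33%. Their median was 0.28. In amyloid Hom compared to WT mice 14 of the 15 were lower (median -0.10), with none called, beside 0.0753% of all genes. Only 1 had an unadjusted p under 0.05 in the lower direction (edgeR), beside 5.77% of all genes. *Dhcr7*, which encodes the last reductase of cholesterol synthesis, stood at -0.15 ± 0.08 (adjusted p = 0.561, edgeR, quasi-likelihood test, Benjamini-Hochberg).

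The list of interferon response genes did not hold *Ch25h*, and its genes differed in the same directions. All 14 were called higher in amyloid than in non-amyloid WT mice (median 1.44), beside 6.62% of all genes called higher. In Hom mice 3 of the 14 were called higher (median 0.56), beside 5.71% of all genes. In amyloid Hom compared to WT mice all 14 were lower and 13 had an unadjusted p under 0.05, beside 5.77% of all genes in this direction (median -0.83), with none called. The summed level of the list ran from 126 to 443 CPM (median 160.0) in amyloid WT and from 123 to 169.5 CPM (median 128) in amyloid Hom mice, so the WT libraries were widely spread. *Isg15* averaged 3.43 ± 3.36 CPM and *Ifi27l2a* 2.95 ± 3.34 CPM in amyloid WT mice (SD, n = 10). *Bst2* (-1.17 ± 0.28, adjusted p = 0.0787) and *Ifitm3* (-0.75 ± 0.18, adjusted p = 0.0791, edgeR, quasi-likelihood test, Benjamini-Hochberg) had the lowest p. The log2 fold change of *Ch25h* in Hom mice, -1.16, lay within the range of the list (-1.73 to -0.17), as did that of the plaque-associated gene *Itgax* (-1.19). A link of *Ch25h* to this list was not tested. In non-amyloid mice the median of the list between the genotypes was -0.03.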

How the data were processed

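The deposited table held raw counts per gene for 40 cortex libraries, which the authors made from poly-A RNA sequenced on an Illumina NovaSeq, with coordinates of mm10. The submitters' processing notes name STAR 2.5.2b and featureCounts 1.5.1, whereas the methods of the study name TopHat with an earlier featureCounts. Which made the table, and whether counting used strand, is not given in the sources used here. All sample columns were mapped by their labels and used, and those left unused numbered 0. The study left out an amyloid Hom female that is not named, and all 40 libraries were kept here.

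Genes that had 10 or more counts in no fewer than 4 libraries were tested with edgeR 4.0.16 (quasi-likelihood test, TMM, R 4.3.3), and a call needed a Benjamini-Hochberg adjusted p under 0.05 over all genes tested and a log2 fold change over 0.25 in size. Genotypes were compared within each cohort, and cohorts and the interaction in a fit of all 40 libraries. DESeq2 1.42.0, limma 3.58.1, other normalizations, filters, covariates and the omission of each library were alternatives. CPM used the TMM-adjusted library size, and log2(CPM + 0.1) entered the permutation tests (SciPy 1.17.1), whose p values are not adjusted. Adjustment had been planned, over the 16 within-sex tests and over the 4 tests relative to microglial genes. The test script was checked on simulated counts. Chi-square per degree of freedom was 12.9 or more in all 180 within-group pairs, so no library was a copy of another. The labels give each library as a mouse of its own.

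The 4 genes and the lists were chosen with earlier results of these data known. Beside the 4 genes, the text names the 5 genes most like each, and from each list the genes called between the genotypes or, where there were none, the 2 with the lowest p. Other genes named were chosen after their values were seen. Some genes of the lists are not reported here by name.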

Additional observations from a re-analysis of the deposited data

Results flagged for a closer look

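*Ch25h* in the non-amyloid Hom replicate 37, a female, was 0.398 CPM, and the next highest library of its group was at 0.175 CPM. The gap was 0.735 of the range of the group, above the critical value of 0.466 for 10 samples. Of 16 combinations of gene and group examined, 1 stood out in this way, and chance gives about 1 in 20.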

How the results depend on the processing

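In amyloid Hom compared to WT mice the log2 fold change of *Ch25h* was past the threshold with DESeq2 (-1.16, adjusted p = 0.00135), limma with quality weights (-1.16, adjusted p = 0.0396), edgeR's own filter (-1.16, adjusted p = 0.0463), sex as a covariate (-1.22) and a fit of all 40 libraries by edgeR (-1.16, adjusted p = 0.00686), and with sex and without replicate 19 (-1.25). *Gpr183* passed with DESeq2 (-0.57, adjusted p = 0.0378), sex as a covariate (-0.61), the fit of 40 libraries (-0.58, edgeR adjusted p = 0.0168) and sex without replicate 19 (-0.59). With each library left out, *Ch25h* ranged from -1.25 to -0.996 and *Cyp7b1* from -0.0600 to 0.0285, the latter above 0 without the WT replicates 8 (0.0285) and 9 (0.0044) and the Hom replicate 10 (0.0068).

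Beside the 16 genes of the test as reported, 300 by DESeq2, 25 by limma, 9 without a filter, 66 with edgeR's own filter, 251 with sex, 612 in the fit of 40 libraries, 200 with sex and without replicate 19, and 6 to 204 with each library left out were called between the genotypes in amyloid mice. The highest, 204, came without the WT replicate 13. In non-amyloid mice 7 were called, 11 by DESeq2 and 4 to 8 with each library left out. For the difference between cohorts 0 were called, 27 by DESeq2, 12 with sex and 6 with sex and without replicate 19. For the interaction with sex 0 to 1 were called with each library left out.

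Between the sexes *Ch25h* passed with DESeq2 (0.74, adjusted p = 0.0196), and *Gpr183* with DESeq2 (0.50, adjusted p = 0.0133) and limma (0.53, adjusted p = 0.0301). *Hsd3b7* was below 0 with limma (-0.0130) and without replicate 19 (-0.0013). The 51 genes called became 251 with DESeq2, 113 with limma, 26 without a filter, 17 without genotype in the model and 89 without replicate 19.

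Within females, with each library left out, *Ch25h* ranged from -1.02 to -0.62, *Gpr183* from -0.52 to -0.29 and *Cyp7b1* from -0.0382 to 0.15, the last below 0 without the WT replicates 5 (-0.0382) and 12 (-0.00083). Within males *Hsd3b7* ranged from -0.0785 to 0.0488, above 0 without the WT replicates 22 (0.0229) and 27 (0.00077) and the Hom replicates 39 (0.0099) and 40 (0.0488). Relative to plaque-associated genes *Ch25h* was -0.25 and *Gpr183* 0.20. The causes were not tested. The calls of *Ch25h* and *Gpr183* between the cohorts held under all alternatives run. The labels give neither litters nor pairs of mice, so no paired analysis was possible. At 5 to 40 counts per library, depth limits what can be seen of *Ch25h* without amyloid.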
